A study of Homo sapiens with 12 samples.

Results

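The synaptic vesicle and exocytosis genes described here are 36 human genes, taken from a list of names out of the 60664 genes of a table of raw read counts. All 36 were found by Ensembl identifier. They fall into 6 roles: 4 SNARE proteins, 5 synaptotagmins, 12 docking, priming and fusion regulators, 2 proteins that take used SNARE complexes apart, 10 proteins of the vesicle membrane or bound to it, and 3 proteins of vesicle retrieval. The study grew SK-N-SH cells on substrates of 1, 8 or 30 kPa and asked how stiffness affects gene expression. SK-N-SH is an established human neuroblastoma line known to hold both neuron-like and flat, substrate-adherent cells. Each stiffness had 4 libraries of total RNA, all from this 1 line with no treatment named. The material of the substrate, the coating and the culture time are not given in the sources used here, and the labels do not say whether the 4 libraries of a stiffness came from separate cultures. If they did not, the p-values below measure only the spread between these libraries, which may be technical.

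A synaptic vesicle is filled with transmitter, docks at the plasma membrane, is made ready for fusion by priming factors and fuses when calcium enters. Fusion is driven by a SNARE bundle built from a vesicle protein of the VAMP family and the plasma membrane proteins syntaxin and SNAP25, with synaptotagmins as calcium sensors and complexins as clamps and helpers. Sympathetic neuroblasts, from which neuroblastoma arises, use the same machinery for both small vesicles and the dense-core granules that carry catecholamines.

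Of the 36 genes, 34 had enough counts to be tested. SV2B, a vesicle glycoprotein, had 12 counts over all 12 libraries, with none in 4 libraries and at most 3 in any other. AMPH, amphiphysin, which bends membrane during vesicle retrieval, had 2 counts in all and none in 10 libraries. A library with a count of 0 allows up to 0.108 CPM (counts scaled to library size) in the deepest library and up to 0.210 CPM in the shallowest, taking 3 counts as the limit and covering counting error only. Both genes were too low to measure at any stiffness.

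Upstream sequence was read for the genes of the set. RefSeq windows (GRCh38.p14) of 300 bases, from 250 bases before a start to 50 after it, were used for 29 of the 36 genes, as 43 windows, and none was used for SNAP25, SYT7 and CPLX1. A first set of windows is shown because it holds the recognition sequence of REST, the repressor of neuronal genes, whose element is called RE1. Its core blocks AGCACC and GGACAG, 2 bases apart and searched on both strands, were in 3 of the 43 windows, those of SYN1 and RPH3A, against 20 of all 35116 windows (0.057%). Neither gene passed the test in any comparison below. In UNC13A the same blocks stood 8 bases apart, a spacing searched after this sequence had been read. Blocks 7 to 10 bases apart were in 34 of the 35116 windows (0.0968%) and in 1 of the 43. The SYN1 window also held TGACGTCA, the cyclic AMP response element, present in 1.85% of all windows. Capitals mark these matches.
SYN1, chrX:47619808-47620107, minus strand: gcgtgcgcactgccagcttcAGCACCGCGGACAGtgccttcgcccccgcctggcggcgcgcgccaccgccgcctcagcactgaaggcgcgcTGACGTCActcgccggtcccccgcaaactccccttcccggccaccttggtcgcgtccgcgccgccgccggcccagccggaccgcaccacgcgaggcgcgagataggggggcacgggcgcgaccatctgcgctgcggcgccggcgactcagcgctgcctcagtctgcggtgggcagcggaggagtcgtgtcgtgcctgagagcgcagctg
RPH3A, chr12:112791498-112791797, plus strand: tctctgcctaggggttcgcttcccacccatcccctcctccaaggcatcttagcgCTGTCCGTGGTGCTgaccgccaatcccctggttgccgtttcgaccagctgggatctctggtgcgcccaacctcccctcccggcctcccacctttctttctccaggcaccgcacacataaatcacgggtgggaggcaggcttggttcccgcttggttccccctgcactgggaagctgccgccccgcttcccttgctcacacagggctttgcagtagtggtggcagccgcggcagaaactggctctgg
UNC13A, chr19:17688305-17688604, minus strand: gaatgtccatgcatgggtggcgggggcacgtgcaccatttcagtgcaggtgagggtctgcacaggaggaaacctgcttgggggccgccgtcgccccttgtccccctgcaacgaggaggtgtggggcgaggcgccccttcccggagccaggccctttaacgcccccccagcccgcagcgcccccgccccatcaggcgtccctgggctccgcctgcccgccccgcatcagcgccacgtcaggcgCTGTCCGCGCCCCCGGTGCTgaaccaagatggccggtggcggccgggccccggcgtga
The RPH3A window lies at a start inside the annotated gene, and an overlapping window of this gene holds the same match.

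A second set is shown because its genes gave the lower and the higher levels at 8 kPa described below. Capitals mark the GC box, GGGCGG on either strand, which was in 26 of the 43 windows (60.5%) and in 45.0% of all windows. Among the genes called below, VAMP1, which fell, had 3 matches, 2 of which overlap by 1 base. UNC13A, which rose, had 2 in the window printed above, where they are not capitalised, whereas CPLX2 and RAB3C, which rose, and SV2A had none. The SV2A window, chr1:149906942-149907241 on the minus strand, lies inside the annotated gene. Sequence at the upstream end of SV2A (149917882) was thus not read. The windows of VAMP1 and RAB3C also lie inside the annotated genes, nearer the upstream end. TATAAA was in 2 of the 43 windows (4.65%) and in 11.5% of all windows, and CAGATG, an E-box, in 7 of the 43 (16.3%) and in 14.7% of all windows. These matches describe letters in a window and say nothing of binding.
VAMP1, chr12:6470628-6470927, minus strand: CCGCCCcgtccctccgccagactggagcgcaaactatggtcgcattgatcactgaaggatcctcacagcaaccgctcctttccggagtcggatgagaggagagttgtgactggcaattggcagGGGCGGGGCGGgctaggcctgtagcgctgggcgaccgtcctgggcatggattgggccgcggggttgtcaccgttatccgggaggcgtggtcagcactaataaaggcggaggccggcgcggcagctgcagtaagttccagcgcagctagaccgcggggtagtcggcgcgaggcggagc
CPLX2, chr5:175796283-175796582, plus strand: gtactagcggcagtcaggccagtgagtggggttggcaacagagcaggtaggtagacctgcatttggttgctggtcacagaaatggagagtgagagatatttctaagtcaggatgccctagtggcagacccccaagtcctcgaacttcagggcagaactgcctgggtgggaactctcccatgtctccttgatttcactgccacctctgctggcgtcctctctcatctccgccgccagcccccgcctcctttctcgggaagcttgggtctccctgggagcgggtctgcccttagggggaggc
RAB3C, chr5:58582825-58583124, plus strand: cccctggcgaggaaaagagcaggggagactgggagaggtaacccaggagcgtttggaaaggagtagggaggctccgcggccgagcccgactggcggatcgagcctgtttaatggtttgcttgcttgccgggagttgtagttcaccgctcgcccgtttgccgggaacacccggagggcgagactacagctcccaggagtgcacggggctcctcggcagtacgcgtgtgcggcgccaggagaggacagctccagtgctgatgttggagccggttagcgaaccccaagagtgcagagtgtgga

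The libraries differed in depth along with stiffness. Totals were 14317437 to 15896607 counts at 1 kPa, 14951116 to 25349320 at 8 kPa and 23896536 to 27820973 at 30 kPa, so that 8 kPa replicate 1 was the 1 library of its group as shallow as the 1 kPa libraries. Counts of mitochondrial genes made up 11.3 to 14.8%, 10.2 to 11.5% and 11.7 to 13.2% of the totals at 1, 8 and 30 kPa. The labelled cell type was checked against markers of adrenergic neuroblasts: 9 of 10 were measured, and TH, the first enzyme of catecholamine synthesis, reached at most 0.0358 CPM. Their summed level was 678 to 1174 CPM at 1 kPa, 1024 to 1554 CPM at 8 kPa and 1102 to 1262 CPM at 30 kPa. Markers of the mesenchymal neuroblastoma state summed to 4332 to 4722, 3934 to 4642 and 3662 to 4128 CPM in the same order, and fibroblast markers to 3217 to 4251, 2651 to 4142 and 2794 to 3801 CPM. Epithelial markers stayed within 48.9 and 74.9 CPM with KRT5 at 0 in every library, and immune markers within 0.430 and 1.08 CPM. Endothelial markers summed to 5.10 to 10.3 CPM at 1 kPa, 2.86 to 8.07 CPM at 8 kPa and 2.74 to 3.55 CPM at 30 kPa.

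Levels below are CPM scaled by the trimmed mean of M-values. Fold changes are edgeR log2 values with a standard error (SE), fitted on all 17960 genes that passed the count filter. The SE was computed as the absolute log2 fold change divided by the square root of the F statistic of edgeR's quasi-likelihood test. Adjusted p is Benjamini-Hochberg over those genes, with 0.05 as threshold. In bulk RNA, fewer cells of a type and less RNA per cell cannot be told apart.

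Most of the changes were between 8 and 1 kPa, and most of those were in genes of docking, priming and fusion. At 8 kPa relative to 1 kPa, 5 of the 34 measured genes rose and 1 fell. CPLX1, CPLX2, RAB3C, SYT7 and UNC13A rose, by 1.34-fold (UNC13A) to 2.04-fold (CPLX1), and VAMP1 fell to 0.715 of its 1 kPa level. Over all genes tested, 8.17% rose and 5.6% fell in this comparison. The median log2 fold change was 0.18 over the 34 genes and -0.01 over all genes. Positive values numbered 23 of the 34, against 8546 of all 17960 genes. Without adjustment, 15 of the 34 had a p under 0.05, against 5609 of all 17960 genes. At 30 kPa relative to 1 kPa, SNAP25 rose and SV2A fell, with 32 of the 34 not past the threshold, a median of 0.08 and 21 positive values. The shares over all genes were 1.1% higher and 1.33% lower, and 8981 of the 17960 had a positive value. Between 30 and 8 kPa none of the 34 passed the threshold by edgeR, by DESeq2 or by limma-voom, and 1 had an unadjusted p under 0.05. That comparison called 0 of the 17960 genes (0.0%), of which 3218 had an unadjusted p under 0.05 and DESeq2 called 414. Set against the average of the other stiffnesses, 8 kPa differed in VAMP1 alone, where 7.08% of all genes were called.

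**Figure D1:**
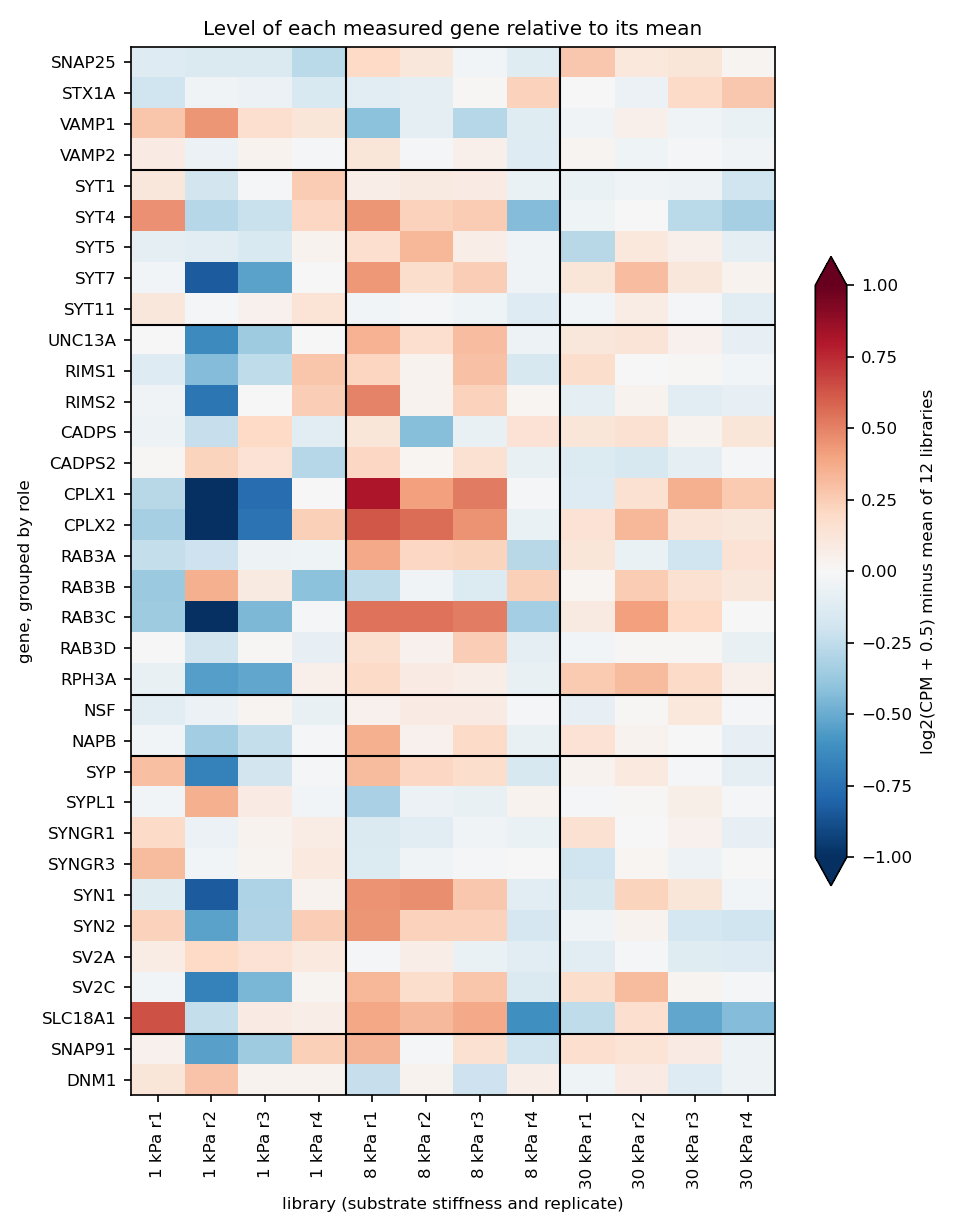
Colour gives log2(CPM + 0.5) minus the gene's mean over the 12 libraries, for the 34 measured genes (rows, grouped by role) in each library (columns, by stiffness). CPLX1, CPLX2, RAB3C and SYT7 are lowest in 1 kPa replicate 2 and high in 8 kPa replicates 1 to 3. In these genes 8 kPa replicate 4 is lower than the rest of its group, and for RAB3C it lies below the gene's mean. Values beyond -1 or 1 take the end colour.

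Of the SNARE genes, VAMP1 fell at 8 kPa and SNAP25 rose at 30 kPa, both relative to 1 kPa. VAMP1 (ENSG00000139190, chr12:6462237-6470987, minus strand) encodes synaptobrevin 1, a vesicle SNARE. It had 26.1, 29.3, 24.1 and 23.3 CPM in the 4 libraries at 1 kPa, 16.0, 19.9, 17.5 and 19.7 CPM at 8 kPa and 20.8, 22.2, 20.9 and 20.4 CPM at 30 kPa. All 4 libraries at 8 kPa lay below all of the other stiffnesses, and those at 30 kPa lay between the other groups with no overlap. The log2 fold change was -0.48 (SE 0.09) for 8 against 1 kPa, with an adjusted p of 0.00770 by edgeR's quasi-likelihood test. For 30 against 1 kPa it was -0.28 (SE 0.08, adjusted p = 0.0875) and for 30 against 8 kPa 0.20 (SE 0.08, adjusted p = 0.240), neither past the threshold. Against the average of the other stiffnesses, 8 kPa differed by -0.34 (SE 0.07, adjusted p = 0.0292). VAMP1 thus had its lowest level at 8 kPa, and this dip below the average of 1 and 30 kPa passed the test. The dip lost its call on leaving out replicate 1 or 3 at 8 kPa, or any of replicates 1 to 3 at 30 kPa, with adjusted p of 0.0123 to 0.148 over the 12 fits that leave 1 library out.

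VAMP1 shares 339 exon bases, 9.47% of its exon length, with TAPBPL on the opposite strand, and the strand setting of the counting is not given in the sources used here, so reads of the pair cannot be told apart over that stretch. TAPBPL itself averaged 14.2 CPM over the 12 libraries and had a log2 fold change of -0.26 for 8 against 1 kPa (adjusted p = 0.102). VAMP2, synaptobrevin 2, the main vesicle SNARE of central synapses, had 29.4, 26.6, 28.4 and 27.4 CPM at 1 kPa, 30.3, 27.5, 28.8 and 25.4 CPM at 8 kPa and 28.3, 26.9, 27.4 and 27.0 CPM at 30 kPa. Its groups overlapped throughout, and its log2 fold change for 8 against 1 kPa was -0.00 (SE 0.06, adjusted p = 0.996). Per exon length, VAMP1 made up 45.5 ± 3.09% of the VAMP1 and VAMP2 signal at 1 kPa, 37.3 ± 4.02% at 8 kPa and 41.2 ± 1.19% at 30 kPa (each the mean ± SD of n = 4 libraries).

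SNAP25 (ENSG00000132639, chr20:10218830-10307418, plus strand) is the plasma membrane SNARE that contributes a pair of helices to the fusion bundle. It had 48.6, 48.1, 48.1 and 44.1 CPM at 1 kPa, 61.2, 57.6, 52.2 and 49.0 CPM at 8 kPa and 64.5, 57.2, 58.0 and 54.4 CPM at 30 kPa. Every library at 8 or 30 kPa lay above every library at 1 kPa, while the 8 and 30 kPa groups overlapped. The log2 fold change was 0.31 (SE 0.07) for 30 against 1 kPa with an adjusted p of 0.0427 in edgeR, and 0.22 (SE 0.07, adjusted p = 0.0616) for 8 against 1 kPa. The call at 30 kPa held without 8 kPa replicate 1 or 8 kPa replicate 4 and was lost without any other single library, with adjusted p of 0.0231 to 0.116. It was also lost with a transcript length offset (adjusted p = 0.0509) and with depth class as a term (0.444). STX1A, the syntaxin of the same bundle, had 22.8, 25.8, 25.3 and 23.7 CPM at 1 kPa, 24.5, 24.7, 26.5 and 31.1 CPM at 8 kPa and 26.3, 25.3, 30.2 and 31.8 CPM at 30 kPa. Its groups overlapped, and the log2 fold changes were 0.13 (adjusted p = 0.351) for 8 against 1 kPa and 0.22 (adjusted p = 0.208) for 30 against 1 kPa. STX1A shares 17.9% of its exon length with BUD23 on the opposite strand. BUD23 had 21222 counts over the 12 libraries, against 6762 for STX1A. As the strand setting is not given, reads of this pair cannot be told apart over that stretch either.

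Among the 5 synaptotagmins, SYT7 rose at 8 kPa relative to 1 kPa and the other 4 did not pass the test. SYT7 (ENSG00000011347, chr11:61515313-61581148, minus strand) is a high-affinity calcium sensor of asynchronous release and of granule exocytosis. It had 61.2, 34.8, 42.9 and 62.2 CPM at 1 kPa, 84.3, 70.5, 74.1 and 60.9 CPM at 8 kPa and 67.8, 77.5, 67.6 and 63.8 CPM at 30 kPa. Replicates 2 and 3 were low at 1 kPa, and 8 kPa replicate 4 lay within the 1 kPa range, whereas all 30 kPa libraries lay above that range. The log2 fold changes were 0.52 (SE 0.15, adjusted p = 0.0369) for 8 against 1 kPa and 0.46 (SE 0.15, adjusted p = 0.121) for 30 against 1 kPa. The first call held on leaving out replicate 1 or 4 at 1 kPa, replicate 4 at 8 kPa, or replicate 2 or 4 at 30 kPa, and was lost without any other single library, with adjusted p of 0.0143 to 0.115.

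SYT1, the fast calcium sensor of synaptic vesicles, averaged 89.5 ± 11.5 CPM at 1 kPa, 89.1 ± 4.41 CPM at 8 kPa and 81.2 ± 4.12 CPM at 30 kPa (each the mean ± SD of n = 4 libraries). SYT4, an atypical synaptotagmin of dense-core vesicles, averaged 209 ± 52.3, 222 ± 52.5 and 178 ± 20.02 CPM, and its libraries spread from 163 to 273 CPM within 1 kPa alone. SYT11, which does not bind calcium, averaged 228 ± 10.8, 209 ± 7.45 and 214 ± 11.0 CPM, and SYT5, of dense-core vesicles, 3.24 ± 0.212, 3.85 ± 0.476 and 3.32 ± 0.440 CPM in the same order. None of these had an adjusted p under 0.139 in any comparison by edgeR. Per exon length, SYT4 and SYT11 were the most abundant of the 5, and SYT7 made up 7.34 ± 0.993% of the summed synaptotagmin level at 1 kPa, 10.5 ± 0.493% at 8 kPa and 11.0 ± 0.351% at 30 kPa.

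**Figure D2:**
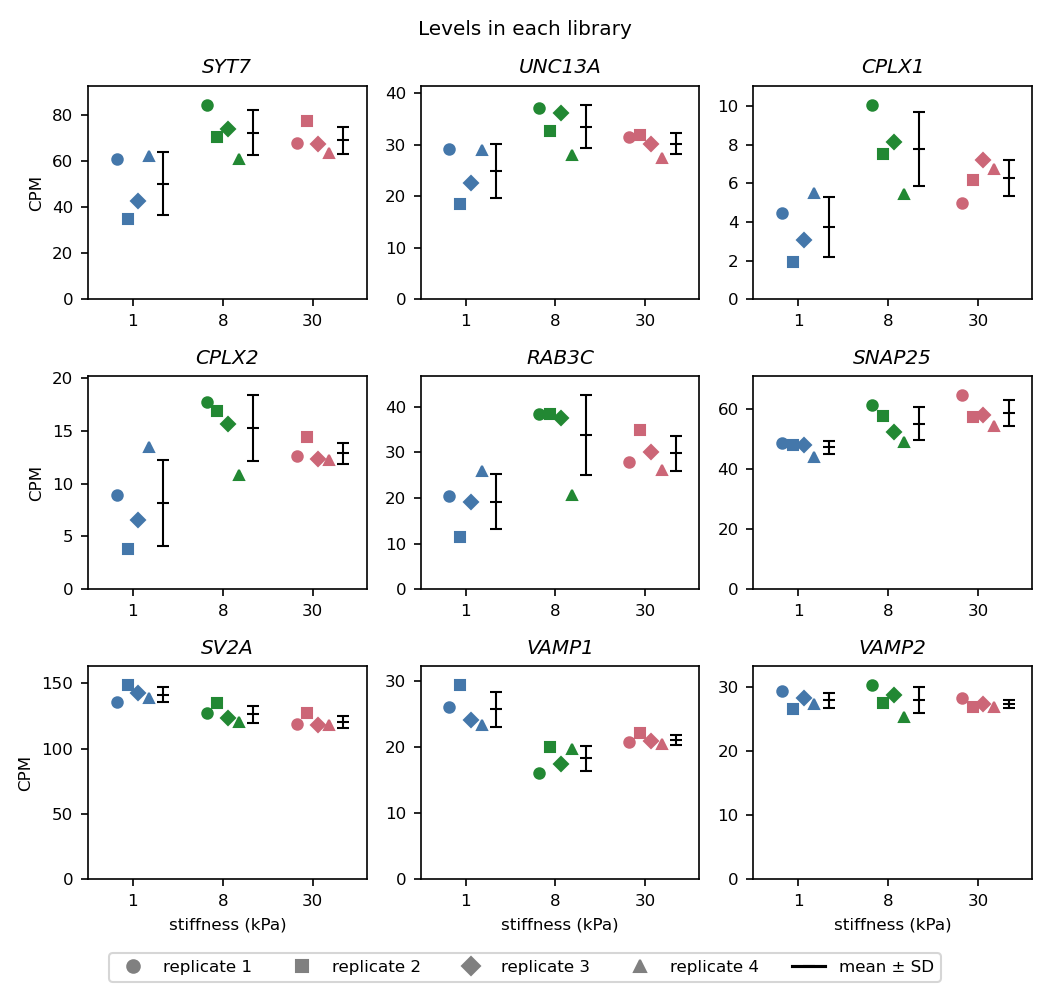
Levels in CPM (vertical axes, from 0) in each library at 1, 8 and 30 kPa for the 8 called genes and VAMP2; marker shape gives the replicate and the bar the mean ± SD of 4 libraries. For RAB3C, 8 kPa replicate 4 lies at 20.6 CPM while the other 3 libraries lie at 37.5 to 38.4 CPM, and the VAMP1 libraries at 8 kPa lie below all the others.

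The docking, priming and fusion regulators held 4 of the 5 genes that rose at 8 kPa. Of the 12, all measured, CPLX1, CPLX2, RAB3C and UNC13A rose relative to 1 kPa, none fell, 11 had a positive value and the median log2 fold change was 0.29. CPLX1 (ENSG00000168993, chr4:784957-826198, minus strand), a complexin, had 4.47, 1.94, 3.06 and 5.51 CPM at 1 kPa, 10.0, 7.53, 8.13 and 5.44 CPM at 8 kPa and 5.01, 6.19, 7.20 and 6.74 CPM at 30 kPa. Its level was highest in 8 kPa replicate 1 and lowest in 1 kPa replicate 2, and the groups at 1 and 8 kPa overlapped by 8 kPa replicate 4. The log2 fold change was 1.03 (SE 0.25, adjusted p = 0.0192) for 8 against 1 kPa, 0.74 (SE 0.25, adjusted p = 0.129) for 30 against 1 kPa and -0.29 (adjusted p = 0.511) for 30 against 8 kPa. The call was lost on leaving out replicate 3 at 1 kPa, or replicate 1 or replicate 3 at 8 kPa, with adjusted p of 0.00713 to 0.0626 over the 12 fits.

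CPLX2 (ENSG00000145920, chr5:175796310-175884020, plus strand), the second complexin measured, had 8.87, 3.80, 6.57 and 13.4 CPM at 1 kPa, 17.7, 16.9, 15.6 and 10.8 CPM at 8 kPa and 12.6, 14.3, 12.4 and 12.2 CPM at 30 kPa. Here 1 kPa replicate 4 lay above 8 kPa replicate 4 and above 3 of the 30 kPa libraries. The log2 fold change was 0.88 (SE 0.26, adjusted p = 0.0360) for 8 against 1 kPa and 0.65 (SE 0.26, adjusted p = 0.186) for 30 against 1 kPa. CPLX1 made up 58.0 ± 2.44% of their summed level per exon length at 1 kPa, 59.9 ± 2.41% at 8 kPa and 58.7 ± 4.47% at 30 kPa (each the mean ± SD of n = 4 libraries).

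RAB3C (ENSG00000152932, chr5:58582221-58859394, plus strand) is a small GTPase of the RAB3 family that marks secretory vesicles. It had 20.4, 11.5, 19.1 and 26.0 CPM at 1 kPa, 38.4, 38.4, 37.5 and 20.6 CPM at 8 kPa and 27.9, 35.0, 30.1 and 26.2 CPM at 30 kPa. All 30 kPa libraries lay above all 1 kPa libraries, and 8 kPa replicate 4 lay inside the 1 kPa range. On the log2 scale 8 against 1 kPa gave 0.80 (SE 0.22, adjusted p = 0.0292) and 30 against 1 kPa gave 0.63 (SE 0.22, adjusted p = 0.137). For both CPLX2 and RAB3C the call was lost without any of 1 kPa replicates 1 to 3 or 8 kPa replicates 1 to 3, with adjusted p of 0.00517 to 0.0981 for CPLX2 and 0.00548 to 0.0906 for RAB3C.

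The other RAB3 genes, whose products cycle on and off secretory vesicles with GTP, did not pass the test in any comparison. RAB3B averaged 108 ± 28.5, 109 ± 16.5 and 123 ± 8.31 CPM at 1, 8 and 30 kPa, RAB3D 15.2 ± 0.978, 17.0 ± 1.76 and 15.6 ± 0.449 CPM, and RAB3A 5.62 ± 0.441, 6.95 ± 1.35 and 6.23 ± 0.747 CPM (each the mean ± SD of n = 4 libraries). At 1 kPa RAB3B was highest in replicate 2 (144 CPM), where RAB3C was lowest, and lowest in replicate 4 (84.0 CPM), where RAB3C was highest. At 8 kPa RAB3B was highest in replicate 4 (132 CPM), again the library where RAB3C was lowest. At 30 kPa both genes were highest in replicate 2, at 133 CPM for RAB3B and 35.0 CPM for RAB3C. RAB3C made up 12.0 ± 4.46%, 17.7 ± 4.12% and 15.7 ± 1.41% of the RAB3 family per exon length at 1, 8 and 30 kPa. Antisense or overlapping genes cover part of the exons of RAB3A (9.08% by MPV17L2) and RAB3D, which makes their counts uncertain. For RAB3D, TMEM205 on the same strand (3901 counts) and CCDC159 on the opposite strand (1671 counts) each cover 3.26%. A noncoding gene covers 20.5% of the RAB3D exons but had 27 counts over the 12 libraries, against 4009 for RAB3D.

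UNC13A (ENSG00000130477, chr19:17601328-17688365, minus strand), the priming factor that opens syntaxin, had 29.3, 18.5, 22.7 and 29.1 CPM at 1 kPa, 37.3, 32.8, 36.1 and 28.1 CPM at 8 kPa and 31.6, 31.9, 30.1 and 27.5 CPM at 30 kPa. The lowest libraries were again 1 kPa replicates 2 and 3, and 8 kPa replicate 4 lay inside the 1 kPa range. UNC13A had log2 fold changes of 0.43 for 8 against 1 kPa (SE 0.13, adjusted p = 0.0411) and 0.28 for 30 against 1 kPa (SE 0.13, adjusted p = 0.252). The call held only without 1 kPa replicate 1 or 4 or 8 kPa replicate 4 and was lost without each of the other 9 libraries, with adjusted p of 0.0169 to 0.123. RPH3A, rabphilin, which binds RAB3 proteins, averaged 33.2 ± 7.21, 41.5 ± 3.21 and 45.8 ± 3.63 CPM at 1, 8 and 30 kPa, with log2 fold changes of 0.46 (SE 0.12, adjusted p = 0.0560) for 30 against 1 kPa and 0.32 (SE 0.12, adjusted p = 0.0898) for 8 against 1 kPa. The active zone scaffolds RIMS1 and RIMS2 averaged 4.88 ± 1.17, 5.74 ± 0.848 and 5.47 ± 0.387 CPM and 9.29 ± 2.52, 11.5 ± 1.93 and 9.46 ± 0.460 CPM. CADPS and CADPS2, which prime dense-core vesicles, stayed at 4.51 to 7.22 CPM and 2.47 to 3.73 CPM over the 12 libraries.

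NSF, the ATPase that separates used SNARE bundles, and NAPB, its adaptor, did not pass the test. NSF averaged 74.6 ± 3.11, 80.2 ± 2.55 and 77.9 ± 4.19 CPM at 1, 8 and 30 kPa. NAPB averaged 20.9 ± 2.44, 25.6 ± 3.39 and 23.7 ± 1.58 CPM, and 8 against 1 kPa gave 0.29 on the log2 scale (SE 0.10, adjusted p = 0.0700).

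The vesicle membrane genes gave no call between 8 and 1 kPa, with 4 positive values among the 9 measured and a median log2 fold change of -0.00. SV2A (ENSG00000159164, chr1:149903318-149917882, minus strand), the vesicle glycoprotein that binds the antiepileptic drug levetiracetam, had 136, 148, 143 and 138 CPM at 1 kPa, 127, 135, 123 and 120 CPM at 8 kPa and 119, 128, 119 and 118 CPM at 30 kPa. Every library at 8 or 30 kPa lay below every library at 1 kPa. The log2 fold change was -0.23 (SE 0.05, adjusted p = 0.0384) for 30 against 1 kPa and -0.16 (SE 0.05, adjusted p = 0.0536) for 8 against 1 kPa. At 30 kPa the call held on leaving out replicate 4 at 1 kPa, replicate 2 or 4 at 8 kPa, or replicate 2 at 30 kPa, and was lost without any other single library, with adjusted p of 0.0275 to 0.130. It was also lost with library totals alone (adjusted p = 0.0539), with no low-count filter (0.0867), in the fit of 30 and 1 kPa alone (0.0507) and with depth class as a term (0.520). SV2C, its relative, averaged 42.0 ± 9.69, 56.5 ± 7.94 and 54.9 ± 5.98 CPM at 1, 8 and 30 kPa, with log2 fold changes of 0.42 (SE 0.14, adjusted p = 0.0631) for 8 against 1 kPa and 0.39 (SE 0.14, adjusted p = 0.160) for 30 against 1 kPa. SV2C made up 10.7 ± 2.53% of the SV2 family per exon length at 1 kPa, 15.2 ± 1.71% at 8 kPa and 15.4 ± 0.990% at 30 kPa, and SV2A nearly all the rest.

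SYN1, a synapsin that tethers vesicles to actin, was the least abundant measured gene per exon length, with 1.08 ± 0.379, 1.82 ± 0.400 and 1.47 ± 0.226 CPM at 1, 8 and 30 kPa and 0.73 on the log2 scale for 8 against 1 kPa (SE 0.25, adjusted p = 0.0694). SYN2 averaged 8.74 ± 2.42, 10.5 ± 1.84 and 8.49 ± 0.698 CPM, and SYP, synaptophysin, 16.9 ± 4.69, 20.1 ± 2.79 and 18.2 ± 1.02 CPM. These 3 genes had their lowest 1 kPa library in replicate 2. SYPL1, a synaptophysin relative found in many cell types, averaged 174 ± 23.0, 151 ± 15.3 and 163 ± 3.90 CPM and was highest at 1 kPa in that same replicate, at 207.5 CPM. SYNGR1 and SYNGR3, synaptogyrins, stayed between 7.22 and 10.6 CPM in every library. SLC18A1, the monoamine transporter that fills chromaffin granules, averaged 15.8 ± 4.36, 15.8 ± 4.59 and 11.8 ± 2.75 CPM, and 8 kPa replicate 4 (8.96 CPM) lay far below the other 8 kPa libraries (17.6 to 18.4 CPM).

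For vesicle retrieval, SNAP91, a clathrin assembly protein of synapses, averaged 26.9 ± 6.72, 31.0 ± 5.02 and 31.2 ± 2.05 CPM at 1, 8 and 30 kPa. DNM1, the neuronal dynamin that cuts vesicles from the membrane, averaged 120 ± 9.83, 104 ± 11.2 and 107 ± 6.62 CPM. Neither passed the test in any comparison, the nearest being DNM1 for 8 against 1 kPa, at -0.20 (SE 0.08, adjusted p = 0.101).

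**Figure D3:**
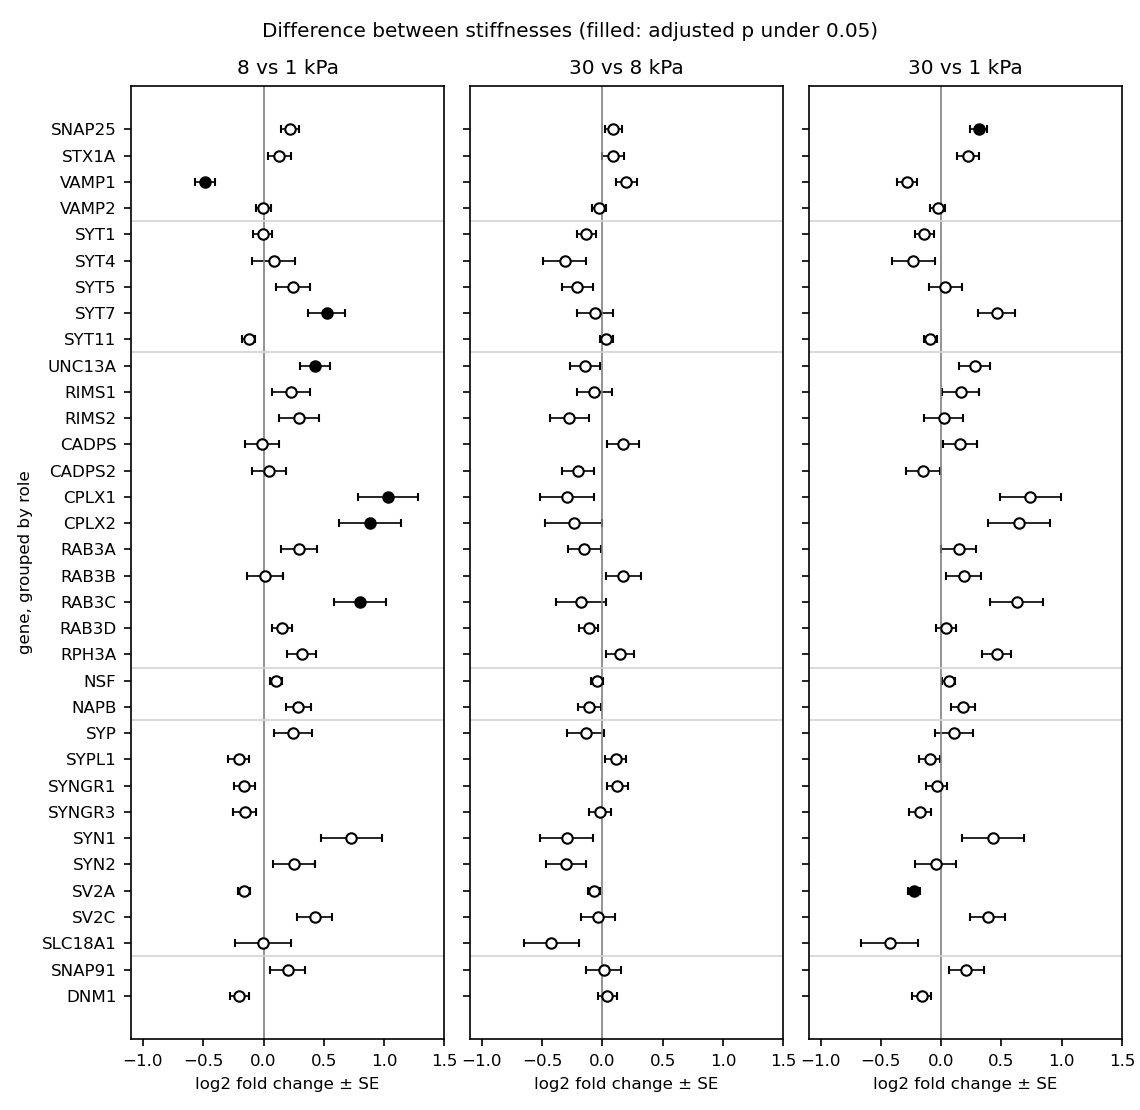
Log2 fold change with its SE for each of the 34 measured genes, grouped by role, in the 3 pairwise comparisons; filled points passed an adjusted p of 0.05. Between 8 and 1 kPa 5 filled points lie to the right and VAMP1 to the left, between 30 and 8 kPa no point is filled, and between 30 and 1 kPa SNAP25 and SV2A are filled.

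The comparisons of 8 and of 30 kPa with 1 kPa share the 1 kPa libraries, so their values stand side by side without a test of their likeness. For CPLX1 they were 1.03 and 0.74, for CPLX2 0.88 and 0.65, for RAB3C 0.80 and 0.63, for SYT7 0.52 and 0.46 and for UNC13A 0.43 and 0.28. For SNAP25 they were 0.22 and 0.31 and for SV2A -0.16 and -0.23. The 30 against 8 kPa comparison tests the step between them, and no gene of the set passed it.

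Genes whose libraries did not overlap between groups were counted over the 34 measured genes, with the share over all genes beside them. At 8 kPa, SNAP25 alone lay above every 1 kPa library and VAMP1 and SV2A lay below, against 9.41% of all genes above and 7.36% below. At 30 kPa, SNAP25, SYT7 and RAB3C lay above every 1 kPa library and VAMP1 and SV2A below, against 5.33% and 6.06% of all genes. Between 30 and 8 kPa, VAMP1 alone was separated, higher at 30 kPa, against 11.3% of all genes in either direction. All 5 genes that rose at 8 kPa had a library at 8 kPa inside the 1 kPa range, in each case replicate 4.

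The same few libraries set the spread of many of the genes. At 1 kPa, replicate 2 was the lowest of the 4 libraries in 23 of the 34 genes, against 35.0% of all genes. At 8 kPa, replicate 4 was the lowest in 26 of the 34, against 31.1% of all genes, and at 30 kPa replicate 4 was the lowest in 20 of the 34, against 25.4%. Highest were 1 kPa replicate 4 in 16, 8 kPa replicate 1 in 17 and 30 kPa replicate 2 in 22 of the 34, against 30.2%, 26.3% and 28.1% of all genes. The summed adrenergic markers had the same lowest libraries: 678 CPM in 1 kPa replicate 2, 1024 CPM in 8 kPa replicate 4 and 1102 CPM in 30 kPa replicate 4. Of the 9 adrenergic markers measured, 4 rose at 8 kPa and 2 at 30 kPa relative to 1 kPa, and none fell. Of the 10 mesenchymal markers, 1 rose and 1 fell at 8 kPa and 2 fell at 30 kPa. None of the 9 fibroblast, 5 epithelial, 1 immune and 2 endothelial markers measured passed the threshold. The endothelial marker PECAM1 came near it at 30 against 1 kPa, at 1.64 CPM against 5.50 CPM with no overlap of libraries. Its log2 fold change there was -1.75 (SE 0.44, adjusted p = 0.0521 by edgeR). The part of these marker changes in the results above was not tested.

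Only replicate 1 at 8 kPa, with 14951116 counts, was as shallow as the 1 kPa libraries. It lay above all 4 libraries at 1 kPa in 19 of the 34 genes and below all 4 in 7, against 29.9% and 30.6% of all genes. Its log2 ratio to the 1 kPa mean was 1.42 for CPLX1, 1.11 for CPLX2, 1.00 for RAB3C, 0.75 for SYT7, 0.58 for UNC13A, 0.37 for SNAP25, -0.15 for SV2A and -0.68 for VAMP1. For the 3 deep libraries at 8 kPa the ratios were 0.91, 0.82, 0.74, 0.45, 0.38, 0.17, -0.16 and -0.43 in the same order. These 8 genes were called with replicate 1 in the fit, so the ratios are a description, and 1 library gives no test of depth. With depth class as a term the 8 against 1 kPa difference rests on that 1 library and no gene of the set was called. The lowest adjusted p was then 0.0643, for VAMP1, whose adjusted p ran from 3.9e-05 to 0.0643 over the 10 other settings.

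**Figure D4:**
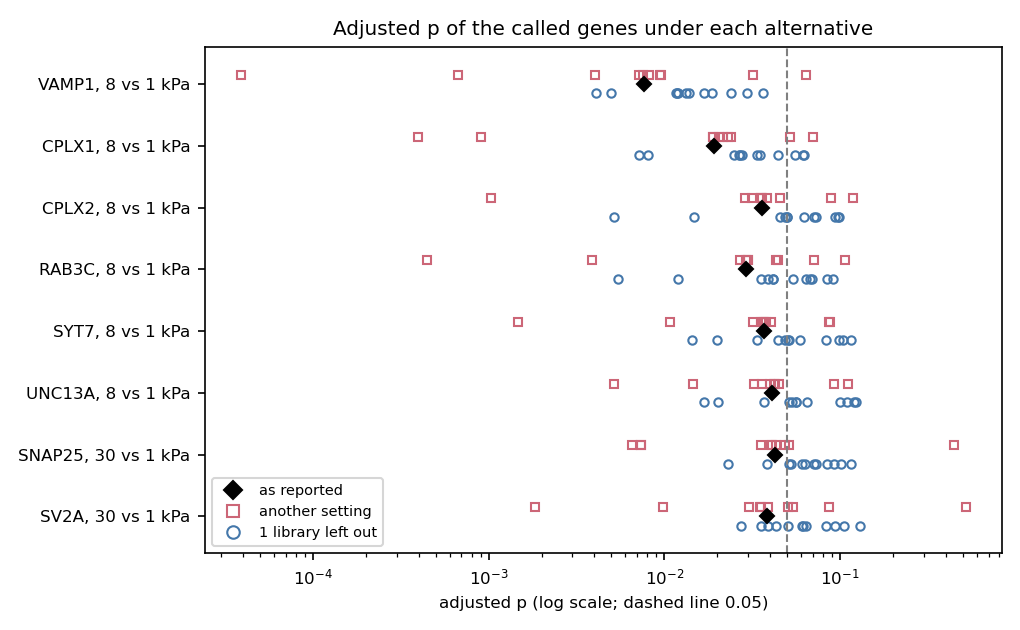
Adjusted p (log axis, dashed line at 0.05) of the 8 calls as reported, under 10 other settings of the fit and with each of the 12 libraries left out. All 12 circles of VAMP1 lie left of the line, at 0.00411 to 0.0362, while the other calls have circles on both sides.

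VAMP1 at 8 against 1 kPa was the only one of the 8 calls kept in all 12 fits that leave a library out and in 9 of the 10 other settings. CPLX1 was kept in 9 of the 12, CPLX2 and RAB3C in 6, SYT7 in 5, UNC13A in 3, SV2A in 4 and SNAP25 in 2. In the fit of 8 and 1 kPa alone, without the 30 kPa libraries, VAMP1 alone kept its call (adjusted p = 0.0320).

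**Figure D5:**
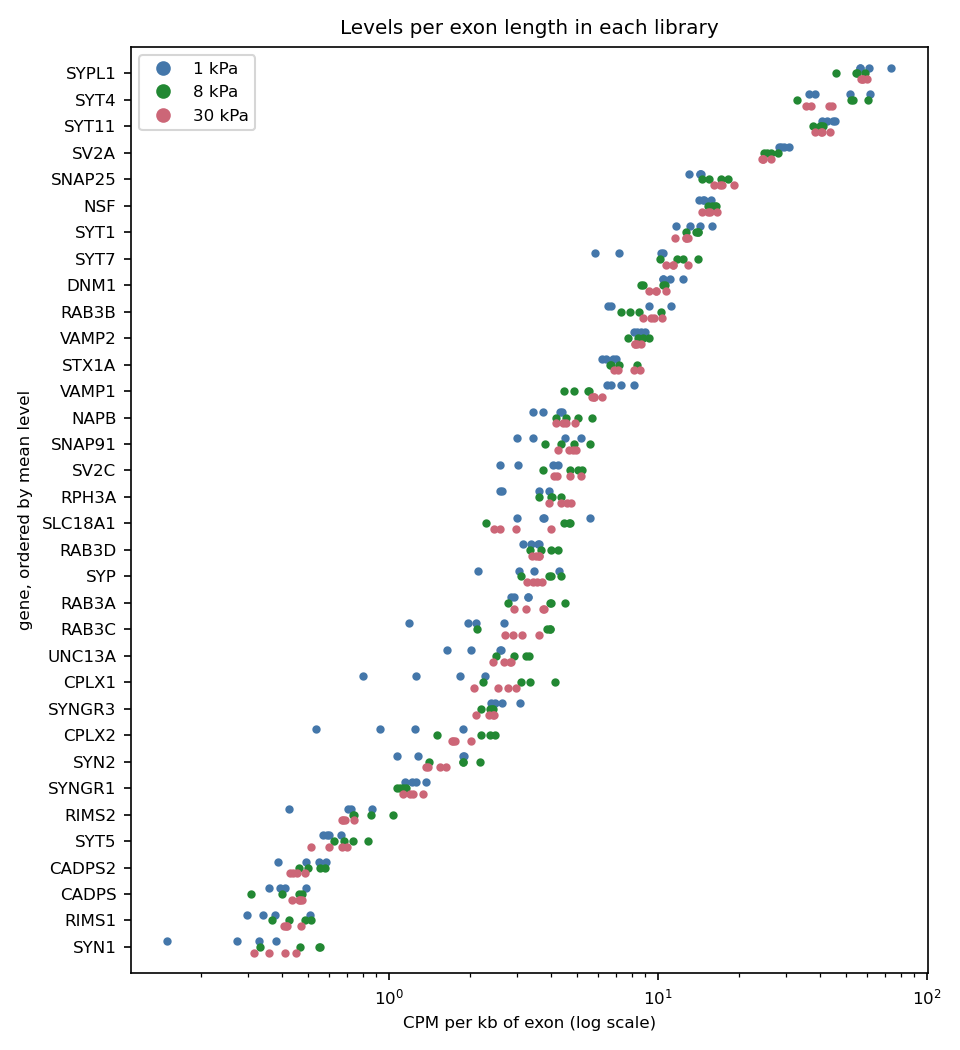
CPM per kb of exon (log axis) in each of the 12 libraries for the 34 measured genes, ordered by mean level, with 1, 8 and 30 kPa offset vertically. The order runs from SYPL1, at a mean of 58.0 CPM per kb, down to SYN1, at 0.382 CPM per kb.

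Levels compared per exon length put SYPL1 first at 58.0 CPM per kb over the 12 libraries, followed by SYT4 at 45.7, SYT11 at 41.4 and SV2A at 26.9 CPM per kb. SNAP25 and NSF followed at 16.0 and 15.5 CPM per kb, neighbours whose libraries overlapped. The SNARE genes VAMP2, STX1A and VAMP1 averaged 8.51, 7.18 and 6.05 CPM per kb. The genes that rose at 8 kPa were spread through the order, from SYT7 at 10.7 CPM per kb, through RAB3C at 2.86, UNC13A at 2.64 and CPLX1 at 2.46, to CPLX2 at 1.70 CPM per kb. At the low end stood RIMS2 at 0.741, SYT5 at 0.649, CADPS2 at 0.495, CADPS at 0.430, RIMS1 at 0.420 and SYN1 at 0.382 CPM per kb.

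Other genes of exocytosis and vesicle traffic were read from a list of 99 genes, of which 87 were measured. At 8 kPa relative to 1 kPa, 8 rose and 1 fell, with a median log2 fold change of 0.06, against 8.17% and 5.6% of all genes. Of the 8 that rose, 5 belonged to the retrieval machinery. AP2S1 and AP2M1, subunits of the clathrin adaptor AP2, averaged 108 and 350 CPM at 8 kPa against 80.6 and 310 CPM at 1 kPa, with log2 fold changes of 0.42 (SE 0.06, adjusted p = 0.00521) and 0.18 (SE 0.05, adjusted p = 0.0357). CLTB, a clathrin light chain, averaged 18.8 CPM at 8 kPa against 13.9 CPM at 1 kPa, or 0.44 on the log2 scale (SE 0.07, adjusted p = 0.00656). SH3GL1, an endophilin, averaged 48.3 CPM against 38.8 CPM (0.32, SE 0.07, adjusted p = 0.0125), and DNAJC5, the cysteine string protein that chaperones SNAP25, 67.6 CPM against 57.8 CPM (0.23, SE 0.05, adjusted p = 0.0117). EXOC8, of the exocyst tethering complex, fell to 39.4 CPM at 8 kPa, against 46.9 CPM at 1 kPa (-0.25, SE 0.05, adjusted p = 0.0122). In each of these 6 genes no library at 8 kPa overlapped those at 1 kPa. They were named for a small adjusted p in this comparison, so the separation is no support of its own. Over the 87 genes, 10 lay above every 1 kPa library and 5 below, against 9.41% and 7.36% of all genes.

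At 30 kPa relative to 1 kPa, 1 of the 87 rose and 3 fell, against 1.1% and 1.33% of all genes. CLTB averaged 17.8 CPM at 30 kPa against 13.9 CPM (0.35, SE 0.07, adjusted p = 0.0200) and EXOC8 38.6 CPM against 46.9 CPM (-0.28, SE 0.05, adjusted p = 0.0165). SYT12, a synaptotagmin that does not bind calcium, fell to 40.9 CPM, against 67.1 CPM at 1 kPa (-0.71, SE 0.17, adjusted p = 0.0432), and SYT14 to 146 CPM, against 204 CPM (-0.49, SE 0.12, adjusted p = 0.0482), with overlapping libraries for SYT14 only. Over the 87 genes, 7 lay above every 1 kPa library at 30 kPa and 11 below, against 5.33% and 6.06% of all genes. None of the 87 passed between 30 and 8 kPa, where 19 had an unadjusted p under 0.05 and DESeq2 called 2. Against the mean of 1 and 30 kPa, 8 were higher and 1 lower at 8 kPa, where 7.08% of all genes were called. Higher there were AP2S1 (0.31, adjusted p = 0.0231), DNAJC5 (0.18, adjusted p = 0.0302), CLTB (0.26, adjusted p = 0.0302) and AP2M1 (0.20, adjusted p = 0.0303). So were the vesicle SNAREs VAMP7 (0.21, adjusted p = 0.0354) and VAMP3 (0.20, adjusted p = 0.0394), whereas VAMP1 was lower there.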

How the data were processed

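RNA of 12 SK-N-SH libraries, 4 per stiffness, was sequenced by the authors, who deposited raw counts per gene and library. Reads were aligned with HISAT2 to GRCh38, per the submitters' processing notes; the counting tool, annotation, strand setting and filters are not given in the sources used here. The rest was computed here. Identifiers were matched to gene names (60463 of 60664 genes), and exon lengths and positions came from GENCODE v29. Genes passed edgeR's filterByExpr (17960 genes, at least 99.9% of each library's counts), were scaled by TMM and fitted with stiffness as the only term in edgeR 4.0.16 (quasi-likelihood test, R 4.3.3). Benjamini-Hochberg adjustment was over all genes tested. The fits were tested on simulated data.

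The members and lists were chosen with earlier results of these data known. Values are given library by library for members past the threshold in any comparison and for SNAP25, STX1A and VAMP2. Listed partner genes are named if past it with at least 5 CPM, up to 6 per comparison by smallest adjusted p.

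Alternatives were median-ratio scaling, library totals alone, no filter, a filter of at least 1 CPM in 4 libraries, DESeq2 1.42.0, limma-voom (limma 3.58.1), a replicate block, depth class (over 20000000 counts or not) as a term, an exon length offset, the pair of groups alone, and each library left out in turn. No 2 libraries of the same stiffness agreed within counting noise, and pairs across stiffnesses were not checked.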

Additional observations from a re-analysis of the deposited data

Results flagged for a closer look

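Within groups of 4 libraries, a library was marked when its gap to the nearest other, divided by the range of the group, passed Dixon's 95% critical value for 4 values. Of 102 such groups (34 genes at 3 stiffnesses) 6 were marked, where chance marks about 1 in 20. RAB3C in 8 kPa replicate 4 had a ratio of 0.949, at 20.6 CPM against 37.5 to 38.4 CPM in the others. SLC18A1 in the same library had a ratio of 0.910, at 8.96 CPM against 17.6 to 18.4 CPM. SNAP25 in 1 kPa replicate 4 had a ratio of 0.895, at 44.1 CPM against 48.1 to 48.6 CPM. At 30 kPa, replicate 2 stood above the others for SV2A, with a ratio of 0.880 (128 CPM against 118 to 119 CPM), and for CPLX2, with a ratio of 0.840 (14.3 CPM against 12.2 to 12.6 CPM). RIMS1 in 30 kPa replicate 1 had a ratio of 0.846, at 6.05 CPM against 5.21 to 5.34 CPM.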

How the results depend on the processing

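Of 592 recomputed values for 27 single-gene results, 466 kept their direction and side of the threshold, 71 lost a call, 46 gained one and 9 changed sign. All 9 were VAMP2 at 8 against 1 kPa, never called: 0.00031 with median-ratio scaling, 0.026 with library totals alone, 0.016 with no filter, 0.12 with depth class as a term, and -0.043 to 0.039 with a library left out. Counts are of called genes, for the vesicle genes, the partner genes and all genes. At 8 against 1 kPa (6, 9 and 2472 as reported), DESeq2 called 10 vesicle and 14 partner genes, no filter 10 vesicle genes, depth class 0, 0 and 0, the pair alone 1, 5 and 1068, and leaving out a library 1 to 12, 4 to 18 and 534 to 3563. At 30 against 8 kPa no setting called a vesicle gene; partner genes numbered 1 with no filter, 2 with DESeq2 and 0 to 5 with a library left out, and all genes 330, 414 and 0 to 1026 under these settings and 61 with the pair alone. At 30 against 1 kPa (2, 4 and 437), library totals gave 1, 2 and 263, DESeq2 5, 9 and 1068, depth class 0, 0 and 0, and leaving out a library 0 to 3, 0 to 6 and 50 to 676; no filter gave 7 vesicle genes and 875 genes, the pair alone 1 vesicle gene and the stricter filter 7 partner genes. For 8 kPa against the mean of 1 and 30 kPa (1, 9 and 1272), vesicle genes numbered 5 with no filter, 2 with DESeq2 and 2 with depth class, partner genes 4 with the length offset and all genes 2263 with DESeq2; leaving out a library gave 0 to 7, 0 to 15 and 0 to 2870. The number of genes too low to measure was 2 as reported, with the stricter filter and with each library left out. The fit with no filter sets no such limit. For vesicle genes at 8 against 1 kPa, the fit without replicate 4 of the 8 kPa group called 12 and that without replicate 4 of the 1 kPa group 11. Dropping replicate 1 or 3 of the 8 kPa group, or replicate 3 of the 1 kPa group, left 1 call, whereas replicate 2 left 2 when dropped at 1 kPa and 3 when dropped at 8 kPa. These single-fit counts, and those of DESeq2 and no filter at 8 against 1 kPa, stand without the count of all genes in the same fit. A gain or loss particular to the vesicle genes cannot be read from them. The causes were not tested.

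The replicate numbers were not taken as pairing, because the labels do not state it. Whether the libraries are paired was not tested. Differently numbered libraries of different stiffness had r from -0.299 to 0.241. Same-numbered libraries correlated by more than 0.1 in 6 of 12 pairs (r from -0.134 to 0.369). All 3 pairs of replicate 2 did (0.179 to 0.369), and 6 of 12 libraries correlated best with a library of their own number. Some differently numbered pairs also passed 0.1, the highest being 1 kPa replicate 4 with 8 kPa replicate 1 (0.241). These values come from the data and not from the design, and no chance level was computed for them. With the replicate block, 10 vesicle genes were called at 8 against 1 kPa, with SNAP25, SV2A, NAPB and DNM1 added. The count of all genes in that comparison is not given here, so a gain particular to the vesicle genes cannot be read. At 30 against 1 kPa the block called 4 vesicle genes (RPH3A and VAMP1 added), 9 partner genes and 974 genes. All genes called numbered 40 at 30 against 8 kPa and 2096 for 8 kPa against the mean of 1 and 30 kPa.

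Depth class and stiffness cannot be told apart except through 8 kPa replicate 1. Scaling moved the median of all genes by under 0.1 on the log2 scale. Genes near 1 CPM, such as SYN1, have wide counting error at 14317437 counts, the lowest library total.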
